A study of Homo sapiens with 4 samples.

Results

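The genes examined here belong to the transcriptional programme of YAP and TAZ: the target genes CYR61, CTGF, ANKRD1, AMOTL2 and AXL, the DNA-binding partners TEAD1 and TEAD4, the coactivator genes YAP1 and WWTR1, and the kinase gene LATS2. They were chosen by name from the gene names printed on the array, and CYR61 entered the list because its large difference between the clones was already known. The values of CYR61 and the differences between the clones of all members are therefore given as a description with no test. The other members and the gene lists set beside them were also chosen with earlier results of these data known. Their p-values and counts are thus not independent of that choice. The 10 genes are read by 17 probes, of 30982 gene names and 41000 probes in all. CYR61 is now called CCN1, CTGF is CCN2, and the product of WWTR1 is TAZ.

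RNA was taken from HCT116 cells, an established human colon cancer line, carrying a stably expressed shRNA against the long non-coding RNA N-BLR. Clone #3-1 and clone #4-7 were each hybridised to 2 Agilent two-colour arrays, all 4 on 1 slide, together with RNA of an HCT116 clone that carries the empty vector and has no further treatment. The labels speak of lentiviral transduction and the methods of transfection, and each group is 1 clone, so the shRNA and the cells picked cannot be told apart. The 2 arrays per clone are biological replicates in the labels and duplicates in the methods, and since nothing says that separate cultures were used, p-values measure the spread between arrays, which may be technical.

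In the Hippo pathway, the kinases LATS1 and LATS2 phosphorylate YAP and TAZ, which keeps them in the cytoplasm. When the kinases are inactive, YAP and TAZ enter the nucleus and bind TEAD factors, which recognise the DNA element GGAATG. CYR61, CTGF and ANKRD1 are the genes most often used as a readout of this step, and AMOTL2 and LATS2 are also induced by it and act back on the pathway as inhibitors. CYR61 and CTGF are secreted matrix-associated proteins that are also induced within minutes by serum and growth factors.

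The labels of all arrays put the shRNA clone in the Cy5 channel and the empty vector RNA in the Cy3 channel, with no dye swap. The E-cadherin probe gave a log2 ratio of Cy5 over Cy3 of -2.60 on the arrays of clone #3-1 and of -1.34 on those of clone #4-7, so it was lower in Cy5. The study describes E-cadherin as raised in its clones, and the direction that the dye labels give is the opposite. Every direction below is therefore written as higher in Cy5 or higher in Cy3, and each sign turns if Cy3 is read as the clone.

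The levels of the single channels also went against the dye labels. The Cy3 channel should hold the same empty vector RNA on every array, whereas the Cy5 channel should change with the clone. Among 26883 probes well above background in both channels on all arrays, the difference between the mean of the clone #3-1 arrays and the mean of the clone #4-7 arrays had an SD of 0.464 on the log2 scale in Cy3 and of 0.127 in Cy5. It reached 2-fold for 1033 probes in Cy3, or 3.84%, and for 29 probes in Cy5, or 0.108%. The deposited mean intensities, before any normalization, gave 963 and 37 probes. The median absolute difference between the 2 arrays of a clone was 0.062 in Cy3 and 0.063 in Cy5, so the arrays of a clone matched each other equally well in both channels. The cause was not tested.

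The members followed this pattern. All 16 member probes that were measured differed more between the arrays of the clones in Cy3 than in Cy5, and in the deposited mean intensities 14 of the 16 did. The share of all probes that did so was not computed. Since the spread over all probes was also wider in Cy3, the count shows nothing particular to the members. Outside CYR61, the largest difference of a member in Cy5 was 0.165 on the log2 scale.

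CYR61 encodes a secreted matrix protein that binds integrins, and on the arrays of clone #4-7 it showed the largest ratios of all members. Its brightest probe, A_23_P46429, lies on chromosome 1 from 85760974 to 85761033 in build hg17, the build of all probe positions given here. The log2 ratio of Cy5 over Cy3 was 0.61 and 0.64 on the arrays of clone #3-1 and -3.72 and -3.83 on those of clone #4-7. CYR61 was thus slightly higher in Cy5 on the first pair of arrays and far higher in Cy3 on the second pair, with no overlap. The mean difference between the clones was 4.39.

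The raw intensities of CYR61 show which channel moved. On the 2 arrays of clone #3-1 the mean Cy3 intensity of this probe was 1850 and 1803, and on those of clone #4-7 it was 62129 and 64873. In Cy5 it was 8936 and 9019 on the arrays of clone #3-1, and 17910 and 18486 on those of clone #4-7. The channel labelled as empty vector therefore differed far more between the arrays of the clones than the channel labelled as the clone. After normalization the difference was -5.16 on the log2 scale in Cy3 and -0.77 in Cy5. No member spot was saturated.

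Both other CYR61 probes gave the same signs. Probe A_23_P46426, which has the highest coordinates on this plus-strand gene, gave 0.56 and 0.59 in clone #3-1 and -4.63 and -4.62 in clone #4-7. Probe A_24_P370946, 727 bases before it, gave 0.86 and 0.79 in clone #3-1 and -3.40 and -3.35 in clone #4-7. In Cy3 the difference between the clones was -5.19 for A_23_P46426 and -5.04 for A_24_P370946. In Cy5 it was 0.01 and -0.84, so the smaller Cy5 change depended on the probe. Among the 41000 probes ordered by their difference between the clones, the 3 CYR61 probes held ranks 2, 7 and 10. Read with Cy3 as the clone, CYR61 would be lower than the other channel in clone #3-1 and higher in clone #4-7.

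CTGF, the closest relative of CYR61 among the members, is a secreted protein known for its role in fibrosis and matrix production. Its only probe, A_23_P19663, lies on chromosome 6 from 132311823 to 132311882. The log2 ratios were 1.10 and 1.13 on the arrays of clone #3-1 (mean 1.11, limma's adjusted p = 2.1e-05) and -2.42 and -2.34 on those of clone #4-7 (mean -2.38, limma's adjusted p = 7e-06). Each clone's pair of arrays lay on its own side of 0, with a difference of 3.50 between the clones. The difference lay in Cy3, where the level was 7.18 on average in clone #3-1 and 10.51 in clone #4-7 on the log2 scale. In Cy5 the averages were 8.29 and 8.13. The raw Cy3 intensity was only 82 and 85 on the arrays of clone #3-1, and the ratio there depended on the background correction. It was 2.42 with the scanner software's processed signals, and at least 1.10 under every alternative tried.

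Promoter sequences from RefSeq for build GRCh38.p14 were found for 7 of the 10 members: CTGF, ANKRD1, AMOTL2, AXL, LATS2, YAP1 and WWTR1. They were searched over the 250 bases before the annotated start for GGAATG on both strands, for the AP-1 element TGANTCA and for the CArG box bound by SRF, none of which overlapped. Promoters of CTGF, ANKRD1 and YAP1 are printed below because they are the ones that hold GGAATG, which is in capitals. CTGF had 3 matches, starting 169, 104 and 95 bases before the start, in the window chr6:131951373-131951622 on the minus strand. ANKRD1 had 2 matches, at 220 and 128 bases, in chr10:90921088-90921337 on the minus strand, and YAP1 had 1 match, at 162 bases, in chr11:102110197-102110446 on the plus strand. The other 4 promoters had 0 matches in this window. A single annotated start was searched for each gene.
CTGF: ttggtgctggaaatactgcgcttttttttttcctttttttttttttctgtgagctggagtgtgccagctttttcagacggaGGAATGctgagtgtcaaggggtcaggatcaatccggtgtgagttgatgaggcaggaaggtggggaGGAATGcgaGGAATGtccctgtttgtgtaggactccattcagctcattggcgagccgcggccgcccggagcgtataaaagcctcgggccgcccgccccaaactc
ANKRD1: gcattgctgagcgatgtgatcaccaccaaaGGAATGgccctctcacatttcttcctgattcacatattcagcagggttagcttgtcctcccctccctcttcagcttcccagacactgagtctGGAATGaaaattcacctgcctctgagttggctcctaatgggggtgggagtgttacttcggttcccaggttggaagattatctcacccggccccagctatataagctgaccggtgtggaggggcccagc
YAP1: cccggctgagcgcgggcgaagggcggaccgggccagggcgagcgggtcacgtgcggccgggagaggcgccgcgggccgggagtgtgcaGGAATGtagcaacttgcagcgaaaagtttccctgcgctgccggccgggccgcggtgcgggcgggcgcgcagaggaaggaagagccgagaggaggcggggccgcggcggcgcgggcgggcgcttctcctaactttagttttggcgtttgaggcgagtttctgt
Of all 35116 promoters of this length, 11.9% held GGAATG. The AP-1 element was found in 1 of the 7, ANKRD1, at 195 bases, and in 6.57% of all promoters. The CArG box was found in 0 of the 7 and in 1.16% of all promoters. A match is a description of the letters and not a bound site. The 3 promoters with GGAATG belong to genes with very different readouts on these arrays: CTGF was among the members with the largest ratios, YAP1 had ratios above 0 on every array, and ANKRD1 was not measurable.

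ANKRD1 encodes a nuclear ankyrin-repeat protein of muscle that is also a standard YAP target in other cells. Its probe A_23_P161218 on chromosome 10 was not well above background in either channel on any of the 4 arrays. No fold is given for it. The measured log2 ratios were -0.05 and -0.13 in clone #3-1 and -0.05 and 0.03 in clone #4-7.

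AMOTL2 and AXL, the remaining targets among the members, moved less and did not run alike. AMOTL2 encodes an angiomotin-like protein that holds YAP at cell junctions. Its log2 ratios were 0.42 and 0.43 in clone #3-1 (limma's adjusted p = 0.00031) and -0.24 and -0.34 in clone #4-7 (limma's adjusted p = 0.0013). It was thus higher in Cy5 in clone #3-1 and higher in Cy3 in clone #4-7, as CYR61 and CTGF were. AXL encodes a receptor tyrosine kinase. Its log2 ratios were 0.41 and 0.41 in clone #3-1 (limma's adjusted p = 0.00017) and 0.76 and 0.77 in clone #4-7 (limma's adjusted p = 3.8e-05). AXL was therefore higher in Cy5 in both clones, more so in clone #4-7. Both calls of AXL held under every alternative except a required 2-fold change, whereas the call of AMOTL2 in clone #4-7 was lost under 8 of 17 alternatives.

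The TEAD genes encode the factors that bring YAP and TAZ to DNA. The brighter TEAD1 probe, A_23_P362893, gave 0.35 and 0.30 in clone #3-1 (limma's adjusted p = 0.00053) and -0.30 and -0.27 in clone #4-7 (limma's adjusted p = 0.00091). The other TEAD1 probe, A_23_P429340, lies 13501 bases away on chromosome 11 and gave 0.56 and 0.51 in clone #3-1 and -0.20 and -0.19 in clone #4-7. TEAD1 was on opposite sides of 0 in the clones with both probes, although the changes stayed below 2-fold. The call of the brighter probe was lost under 5 of 17 alternatives in clone #3-1 and under 6 in clone #4-7, and that of the other probe under 1 and 11 of 16. TEAD4 gave 0.27 and 0.24 in clone #3-1 (limma's adjusted p = 0.00095) and 0.48 and 0.50 in clone #4-7 (limma's adjusted p = 0.00012). It was higher in Cy5 on all 4 arrays, and its call in clone #3-1 was lost under 9 of 17 alternatives.

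YAP1 and WWTR1 encode the coactivators, and their probes did not give a single answer. For YAP1, the brighter probe A_23_P104762 gave 0.31 and 0.29 in clone #3-1 (limma's adjusted p = 5e-04) and 0.07 and 0.06 in clone #4-7, where it did not pass (limma's adjusted p = 0.11). The dimmer probe A_24_P273679, 2348 bases further along chromosome 11, gave 1.34 and 1.29 in clone #3-1 and 0.91 and 1.00 in clone #4-7 (limma's adjusted p = 4.2e-05 or smaller). All 8 values were above 0, and the probes differed by about 1 log2 unit in size. With the mean of both probes, YAP1 passed in both clones, at 0.81 and 0.51.

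WWTR1 was read by 4 probes within 2276 bases of chromosome 3, and they disagreed in sign. The brightest, A_23_P29769, gave 0.38 and 0.34 in clone #3-1 (limma's adjusted p = 0.00034) and 0.54 and 0.52 in clone #4-7 (limma's adjusted p = 0.00011). Probes A_24_P944383 and A_24_P944390, which the array assigns to another transcript record of the gene, gave means of -0.14 and -0.22 in clone #3-1 and of -0.67 and -0.69 in clone #4-7. These were higher in Cy3 on all arrays. The fourth probe, A_32_P6868, gave means of 0.05 and -0.04 and passed in neither clone. The mean of the 4 probes was 0.01 in clone #3-1, where it did not pass, and -0.22 in clone #4-7, where it passed, so the direction of WWTR1 rests on the choice of the brightest probe.

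LATS2, the kinase that phosphorylates YAP and TAZ, ran opposite to CYR61 and CTGF. Its log2 ratios were -0.25 and -0.34 in clone #3-1 (limma's adjusted p = 0.0013) and 0.63 and 0.68 in clone #4-7 (limma's adjusted p = 1e-04). LATS2 was thus higher in Cy3 in clone #3-1 and higher in Cy5 in clone #4-7, with a difference of -0.95 between the clones. The difference again lay in Cy3, where the mean level was 10.61 and 9.63 on the log2 scale, against 10.31 and 10.28 in Cy5. The call in clone #3-1 was lost under 11 of 17 alternatives and the call in clone #4-7 under 1, the required 2-fold change.

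Counted by the brightest probe of each gene at limma's unadjusted p under 0.001, 7 of the 9 members other than CYR61 were higher in Cy5 in clone #3-1, against 16.3% of all gene names, and 1 was lower, LATS2, against 16.5%. In clone #4-7, 4 were higher, namely AXL, TEAD4, LATS2 and WWTR1, against 15.8%, and 3 were lower, namely CTGF, AMOTL2 and TEAD1, against 15.3%. ANKRD1 passed in neither clone and YAP1 in clone #3-1 alone. Of these 9 members, 8 were well above background in both channels on all arrays, against 19934 of the 30982 gene names. The median log2 ratio of the 9 was 0.32 in clone #3-1 and 0.07 in clone #4-7, and over all gene names it was 0.01 and 0.0047. The number of arrays and the single control RNA, whose own spread is left out of the test, limit these counts. Without replicate 1 or 2 of clone #3-1 the count of 7 was 3 or 4, without either replicate of clone #4-7 the count of 3 was 1, and without any of the 4 arrays LATS2 no longer passed in clone #3-1.

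In a wider list of YAP and TEAD targets, 15 of 16 genes had a probe. In clone #3-1, 2 passed as higher in Cy5 (NT5E and DOCK5), against 16.3% of all gene names, and 6 as lower, against 16.5%. In clone #4-7, 2 passed as higher (NT5E and CRIM1), against 15.8%, and 5 as lower (GADD45A, MYOF, FJX1, F3 and PTPN14), against 15.3%. Their median log2 ratios were -0.23 and -0.045. The other PTPN14 probe gave a mean of 0.18 in clone #4-7, of the opposite sign, and did not pass. The other DOCK5 probe gave 0.0084 in clone #3-1 and did not pass. Without replicate 1 of clone #3-1 the count of 6 was 3, and without either replicate of clone #4-7 the count of 5 was 3. The counts of 2 were 1 without either replicate of clone #3-1 and, in clone #4-7, 1 without any of the 4 arrays.

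F3, which encodes tissue factor, the initiator of blood clotting, gave -1.39 and -1.27 in clone #3-1 and -0.33 and -0.31 in clone #4-7. NT5E, which encodes the ecto-nucleotidase CD73, gave 1.04 and 1.06 in clone #3-1 and 1.17 and 1.21 in clone #4-7 with its brightest probe. Its other probes gave means of 1.09 and 1.09 in clone #3-1 and of 1.61 and 0.66 in clone #4-7. F3 was therefore higher in Cy3 and NT5E higher in Cy5 on every array, unlike CYR61. Between the clones, 3 of the 15 genes passed with a higher Cy5 over Cy3 ratio in clone #3-1, against 11.3% of all gene names. They were FJX1, GADD45A and MYOF. The ratio was lower there for 3 (F3, CRIM1 and ARHGEF17), against 11.6%. The difference was -1.01 for F3 (limma's adjusted p = 2e-04). The latter count of 3 was 1 without replicate 1 of clone #3-1 or replicate 2 of clone #4-7. Genes named here with less than a 2-fold change were added after their values were seen.

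Among the Hippo pathway genes and YAP regulators, 29 of 30 had a probe, and 7 passed as higher and 4 as lower in Cy5 in clone #3-1. The 4 were VGLL4, WWC1, MOB1B and CSNK1E. In clone #4-7, 5 passed as higher (FAT4, FRMD6, AJUBA, NF2 and CSNK1D) and 3 as lower (VGLL4, RASSF1 and BTRC). These counts stand against 16.3% and 16.5% of all gene names in clone #3-1 and 15.8% and 15.3% in clone #4-7. Several of these calls rest on the brightest probe. In clone #4-7 the other BTRC probe gave a mean of 0.44 and passed with the opposite sign. There the other probes of VGLL4 and FRMD6 gave 0.04 and 0.18 and did not pass. In clone #3-1 the dimmest CSNK1E probe gave 0.10 and did not pass. SAV1 and FRMD6, among the 7 higher in Cy5 there, also rest on the brightest probe. Their other probes gave -0.08 and 0.06 in clone #3-1 and did not pass. The 4 lower in clone #3-1 were 2 without either of its arrays, and the 3 lower in clone #4-7 were 1 without either of its own.

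AMOTL1, a relative of AMOTL2 that also holds YAP at junctions, was the only gene of the list with a 2-fold change by its brightest probe. This probe gave 1.26 and 1.31 in clone #3-1 and 0.13 and 0.12 in clone #4-7, a difference of 1.16 (limma's adjusted p = 7.4e-05). The other AMOTL1 probes gave means of 0.66 and 0.53 in clone #3-1 and differences of 0.69 and 0.26, below 2-fold. NF2 encodes merlin, which activates LATS kinases at the membrane. Its 4 probes gave means between -0.18 and -0.16 in clone #3-1, where none passed, and between 0.44 and 0.88 in clone #4-7. This was the same order as LATS2, and 1 of the dimmer probes, A_24_P168726, differed by -1.05 between the clones. For the difference, 4 genes passed with a higher Cy5 over Cy3 ratio in clone #3-1, against 11.3% of all gene names. They were AMOTL1, RASSF1, TP73 and SAV1. The ratio was lower there for 3 (NF2, WWC1 and CSNK1D), against 11.6%. Without any 1 of the 4 arrays these counts were 1 or 2, and 1. The direction of CSNK1D rests on its brightest probe, with a difference of -0.26, since its other probe gave 0.47 and also passed. The other probes of RASSF1, TP73 and SAV1 gave differences of 0.23, 0.17 and 0.11, of the same sign, and did not pass.

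Of the other CCN genes, only NOV was measured, since the probes of WISP1, WISP2 and WISP3 were not well above background on any array. NOV, also called CCN3, encodes a secreted protein built like CYR61 and CTGF. Its brighter probe gave 0.90 and 0.89 in clone #3-1 and -0.61 and -0.62 in clone #4-7, a difference of 1.51 (limma's adjusted p = 3.9e-05). The other probe, A_24_P29885, gave means of 0.15 in clone #3-1, where it did not pass, and of -0.37 in clone #4-7, a difference of 0.52. The signs were those of CYR61 and CTGF with both probes, and the size depended on the probe.

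CYR61 and CTGF are also targets of SRF with its cofactors MRTF, and of the immediate-early response. Of 15 SRF and MRTF targets, 4 passed as higher in Cy5 (ACTB, CNN1, FHL2 and TPM2), against 16.3% of all gene names, and 3 as lower (TAGLN, ACTA2 and FLNA), against 16.5%, in clone #3-1. In clone #4-7, 4 were higher (FHL2, ACTB, ACTA2 and TPM1), against 15.8%, and 4 lower (SRF, FHL1, TAGLN and FLNA), against 15.3%. SRF itself gave 0.17 and 0.17 in clone #3-1 and -1.42 and -1.39 in clone #4-7 with its brightest probe. Its other probes gave means of -0.05 and 0.04 in clone #3-1 and of -1.26 and -0.37 in clone #4-7. The LIM-domain gene FHL1 gave 0.21 and 0.36 in clone #3-1 and -0.69 and -0.82 in clone #4-7. The cytoskeletal target TAGLN gave means of -0.75 and -0.44 in the clones with its brighter probe, and of -0.72 and -0.21 with the other. For ACTB the brightest probe gave 0.89 and 0.68, and the other 3 gave 0.10, 0.12 and 0.15 in clone #3-1, where none passed, and 0.33, 0.23 and 0.05 in clone #4-7, so its call in clone #3-1 rests on 1 probe. For the difference, 3 passed with a higher Cy5 over Cy3 ratio in clone #3-1 (SRF, FHL1 and CNN2), against 11.3%. The ratio was lower there for 3 (ACTA2, TPM1 and FHL2), against 11.6%. The latter 3 were 1 without replicate 2 of clone #3-1 or either replicate of clone #4-7.

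The 15 immediate-early genes had the lowest median of the 5 lists in clone #4-7. There 14 passed as lower in Cy5, against 15.3% of all gene names, 12 of them by at least 2-fold, and FOSL1 as higher, against 15.8%. JUNB was read there on 1 array, since its spot on the other was an outlier, and FOSL1 no longer passed without replicate 2 of clone #4-7. In clone #3-1, 6 passed as higher, against 16.3%, and 4 as lower (ATF3, JUNB, MYC and ZFP36), against 16.5%. The median log2 ratio was 0.11 in clone #3-1 and -2.95 in clone #4-7. The calls of MYC rest on its brightest probe. Its other probes gave means of 0.19 and -0.28 in clone #3-1 and of -0.08 and -0.26 in clone #4-7, and none of these passed. For the difference between the clones, 13 genes passed with a higher Cy5 over Cy3 ratio in clone #3-1, against 11.3%. The ratio was lower there for 0, against 11.6%, while at an unadjusted p under 0.05 limma gave 1 lower gene, FOSL1. All 18 genes of the other lists that changed 2-fold by their brightest probe in a clone or between the clones differed more between the arrays of the clones in Cy3 than in Cy5. The share of all gene names that did so was not computed, and the spread over all probes was wider in Cy3 as well.

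The genes whose 4 log2 ratios lay nearest to those of CYR61 were 2 of these immediate-early genes, 2 transcripts without a current symbol and a keratin. By Euclidean distance over the 4 arrays, among 26883 probes measured in both channels on every array, they were EGR2 at 0.50, THC2276504 at 0.60, NR4A1 at 0.72, THC2271582 at 0.83 and KRT23 at 0.89. The NR4A1 probe at this distance gave a mean of -3.73 in clone #4-7, and the other NR4A1 probe gave -0.48 there. CTGF lay at 2.09 from CYR61 and no other member nearer than 4.93, which was AMOTL2. Nearest to CTGF were CR599788 at 0.50, EBI2, now called GPR183, at 0.63, and the unnamed probe A_32_P44932 at 0.67. EBI2 gave 1.41 and 1.43 in clone #3-1 and -2.08 and -2.04 in clone #4-7. Both clones are set against the same control RNA on these arrays, so likeness between values of the clones is given as a description only.

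Between 68.5% and 72.6% of the 43376 probe spots of an array were well above background. The epithelial markers EPCAM, KRT8, KRT18, KRT19 and CDX2 were well above background in both channels on all arrays, and VIL1 on none. Of markers of other cell types, 2 of 6 for fibroblasts, 1 of 4 for endothelium and 4 of 5 for leukocytes were measured on all arrays, while PTPRC, which marks all leukocytes, was not well above background on any. Their part in the results was not tested.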

How the data were processed

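RNA of the shRNA clones #3-1 and #4-7 and of the empty vector clone was hybridised to Agilent two-colour arrays, 2 per clone. The authors deposited the mean intensity of each spot and its local background in both channels, as Feature Extraction read them, with processed intensities (background subtracted, dyes balanced) and log10 ratios of red over green. The deposited series table of log10 ratios has 43376 rows, has a median of 0 on each array and lies within 0.005 of the scanner's log10 ratios, so its scale and direction, Cy5 over Cy3, are known. Files give version 9.5.3.1 of the software and the submitters' processing notes 8.5.1.1. Flags of 0 or 1 mark spots that are outliers, saturated or well above background.

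R 4.3.3 and limma 3.58.1 were used: normexp background correction (offset 50), loess within arrays, quantiles between arrays, spots averaged by probe, and a linear model with a term per clone and empirical Bayes over 41000 probes. Between 87 and 125 outlier spots per array and all control spots were left out. The methods' p threshold of 0.001 was applied to unadjusted p, and adjusted p are Benjamini-Hochberg over all probes. The control RNA is 1 sample, so its spread is left out. The test was checked on simulated data. Gene names are those of the array, with RefSeq accessions matching 15 of 17 member probes. Exons and UTRs of the probes were not assigned, since no annotation of hg17 was used here.

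The members and lists were chosen with earlier results of these data known. All member probes are named, with other-list genes that pass p under 0.001 with a 2-fold change (at most 8 per list), and the 5 and 3 genes nearest to CYR61 and CTGF. Same-numbered arrays of the clones do not pair (correlation of their deviations -0.013). Alternatives covered background correction, normalization, filters, thresholds, probe choice, a replicate block and leaving out each array.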

Additional observations from a re-analysis of the deposited data

Results flagged for a closer look

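For CYR61, CTGF, AMOTL2, TEAD1 and LATS2, every array of clone #3-1 lay on the opposite side of 0 from every array of clone #4-7. This difference was not tested, and the share of all gene names that split in this way was not computed. The log2 differences (clone #3-1 minus clone #4-7) were 4.39, 5.20 and 4.20 for the CYR61 probes and 3.50 for CTGF. They were 0.72 for AMOTL2, 0.61 and 0.73 for the TEAD1 probes and -0.95 for LATS2. WWTR1 split only with its dimmest probe, A_32_P6868, which had a difference of 0.0897 and passed in neither clone. Each of its other probes kept a single sign on all arrays.

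Among the named genes of the other lists, the difference between the clones passed limma's p under 0.001 for 13. It was -1.01 for F3, 1.16 for AMOTL1, 1.51 for NOV, 1.58 for SRF and 1.04 for FHL1. Among immediate-early genes it was 5.62 for FOSB, 4.72 for FOS, 4.09 for EGR2, 3.87 for EGR1, 3.84 for NR4A1, 3.61 for JUN, 3.42 for DUSP1 and 3.33 for EGR3. These values are of the brightest probes. The other NR4A1 probe, A_23_P309278, gave a difference of 0.55, so the size for NR4A1 depended on the probe.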

How the results depend on the processing

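Results were recomputed under 17 alternatives, and the cause of a change was not tested except where fewer arrays or a stricter threshold lower the counts by construction. CYR61, CTGF, AMOTL2, AXL, TEAD1, TEAD4, LATS2 and YAP1 kept their direction in both clones with every probe under all alternatives. Among the member probes 3 values turned: ANKRD1, which was not above background, to 0 in clone #3-1 with the deposited log10 ratios and to between -0.0538 and 0.0339 in clone #4-7 when either of its arrays was left out, and WWTR1 to -0.22 in clone #4-7 with the mean of all its probes. No value of the named genes of the other lists turned.

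The counts of members other than CYR61 were 7 higher and 1 lower in Cy5 in clone #3-1, and 4 higher and 3 lower in clone #4-7. They were 4, 0, 4 and 1 with a normexp offset of 0, 2, 0, 4 and 1 with plain background subtraction, and 1, 0, 0 and 1 with a required 2-fold change. In clone #3-1 they were 4 and 0 with the processed signals, and the lower count was 0 with the deposited log10 ratios and with each clone on its own arrays. With any 1 array removed these counts ranged from 3 to 6, stayed at 0 and at 4, and ranged from 1 to 2. With the replicate block the counts were 7, 0, 4 and 3, and every array shares only a number with its partner.

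The counts of other YAP and TEAD targets were 2 higher and 6 lower in Cy5 in clone #3-1, and 2 and 5 in clone #4-7. For the difference of the ratios they were 3 and 3. Counts other than the higher one for the difference were 1, 3, 1, 3 and 1 with an offset of 0, plain subtraction, processed signals and the deposited log10 ratios alike. A required 2-fold change gave 1, 1, 1, 0, 0 and 1. The mean of all probes gave 1 higher in each clone, and Aquantile, no normalization between arrays and each clone on its own arrays gave 1 higher in clone #4-7. With any 1 array removed they ranged from 1 to 2 and 3 to 4 in clone #3-1, were 1 and from 3 to 5 in clone #4-7, and ranged from 2 to 3 and 1 to 2 for the difference. With the replicate block they were 2, 6, 2, 5, 3 and 2. Each clone on its own arrays gives no difference between the clones, and where 1 array of a clone remained, its spread was taken from the other clone. CTGF in clone #3-1 and ANKRD1 are limited by signal over background.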
